A study of Rattus norvegicus with 20 samples.

Results

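The vascular lining of the rat right ventricle was followed through 10 marker genes of endothelial cells, chosen by name: Pecam1, Cdh5, Tie1, Tek, Kdr and Flt1 for the endothelium as a whole and its capillaries, Vwf, Eng and Nos3 for large vessels and endocardium, and Lyve1 for lymphatic vessels. All probe sets (groups of probes for 1 transcript) whose only gene symbol was one of these names were taken. They numbered 13 of the 31042 tested and stood for 9 of 14217 genes, since no probe set carried the single symbol Cdh5, which is not analysed here. Flt1 had 3 probe sets, Kdr and Lyve1 2 each and the others 1, and the brightest stands for the gene unless another is named. The RNA came from 20 tissue samples of male Sprague Dawley rats weighing about 350 g, 1 Affymetrix expression array each. PE rats had received 2000000 polystyrene microspheres of 25 micron per 100 g body weight (PE2.0 in the labels), suspended in 0.01% Tween-20, into the right jugular vein, from where they lodge in the lung and obstruct its vessels (chronic pulmonary embolism, PE). Vehicle rats received 0.01% Tween-20 alone. At 6 weeks the hearts were perfused briefly with saline and the right ventricle was divided into outflow tract (base) and apex, giving 4 groups of 5 arrays, apex and outflow of either treatment. The labels number biological replicates and name no pooling of animals.

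Endothelial cells line every blood and lymph vessel and the inner surface of the heart. In heart muscle most of them form capillaries, which carry the VEGF receptors Kdr and Flt1 and exchange nutrients with the muscle cells, whereas von Willebrand factor (Vwf), a clotting and adhesion protein stored for secretion, is made mainly by veins, larger vessels and endocardium. Lyve1, a hyaluronan receptor, marks lymphatic endothelium and is also carried by a class of tissue macrophages. In whole tissue, fewer cells of a type and less RNA per cell cannot be told apart, and this holds for every level given here.

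The heart muscle markers were bright in all groups. The summed signal of 8 cardiomyocyte genes was 301716 to 364696 on the vehicle outflow arrays, 264688 to 312269 in PE apex and 137026 to 364498 in PE outflow. One array stood apart. PE outflow replicate 2 had a ratio of 3' to 5' GAPDH signal, a measure of RNA and label integrity, of 6.12, against 2.20 and 2.34 on replicates 4 and 5 of its group, 1.71 and 1.70 on replicates 1 and 3, and 1.38 to 1.83 on the 15 arrays of the other groups. It also held the highest cardiomyocyte sum of its group, 364498 against at most 195921, and the lowest sum of 8 macrophage genes, 7563 against at least 15323. Where a marker's value rested on this array, it is also given without it.

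The promoter reference (RefSeq, build GRCr8) held 6 of the 9 measured genes. The 250 bases before the start of transcription are shown for Eng and Lyve1, which rose in the outflow tract after PE, and for Kdr, which fell there. Flt1 is also shown, which was lower there on every probe set but not called on its brightest. Members that moved in opposite directions can thus be set side by side. Capitals mark the ETS core motifs AGGAAG and CCGGAA, or their reverse complements, which bind factors of the ETS family that are active in endothelium.
Eng, chr3:36332029-36332278, plus strand: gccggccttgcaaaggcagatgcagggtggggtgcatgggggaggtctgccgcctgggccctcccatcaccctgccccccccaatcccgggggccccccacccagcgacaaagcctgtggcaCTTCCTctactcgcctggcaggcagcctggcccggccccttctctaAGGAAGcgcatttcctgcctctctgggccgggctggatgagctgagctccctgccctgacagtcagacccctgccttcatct
Lyve1, chr1:174410978-174411227, minus strand: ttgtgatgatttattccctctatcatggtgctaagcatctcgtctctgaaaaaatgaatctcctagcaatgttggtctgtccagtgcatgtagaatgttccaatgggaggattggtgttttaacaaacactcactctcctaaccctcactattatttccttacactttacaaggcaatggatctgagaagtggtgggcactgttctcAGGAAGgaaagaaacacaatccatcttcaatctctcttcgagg
Kdr, chr14:32571813-32572062, plus strand: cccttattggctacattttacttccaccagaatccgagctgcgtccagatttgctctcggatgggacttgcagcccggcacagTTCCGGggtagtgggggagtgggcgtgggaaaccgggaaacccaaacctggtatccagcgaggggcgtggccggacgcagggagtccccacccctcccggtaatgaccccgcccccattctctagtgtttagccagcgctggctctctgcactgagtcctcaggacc
Flt1, chr12:12333180-12333429, plus strand: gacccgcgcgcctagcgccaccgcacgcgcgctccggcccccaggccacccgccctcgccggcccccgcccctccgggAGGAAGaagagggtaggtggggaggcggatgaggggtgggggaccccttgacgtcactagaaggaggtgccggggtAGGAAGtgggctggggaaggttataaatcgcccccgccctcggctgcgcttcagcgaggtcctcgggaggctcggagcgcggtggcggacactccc
Both strands of 300 bases, from 250 before to 50 after the start, were searched. AGGAAG was present in 5 of the 6 windows, those of Flt1, Eng, Lyve1, Tie1 and Nos3, and in 34.5% of 33469 rat promoters. CCGGAA was present in the Kdr window alone, which had 2 matches, 1 of them within the 50 bases after the start, and in 15% of all promoters. The other motifs searched, AACAGGAA for combined forkhead and ETS sites (2.58% of promoters), AGATAA for GATA factors (11.6%), TGACTCA for AP-1 (4.63%) and ACGTG for hypoxia-inducible factors (19.3%), had 0 matches in the 6 windows. ETS cores stood upstream of Eng and Lyve1, which rose, and of Kdr, the 1 marker called as fallen.

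The first comparison asked what PE changed in the apex. None of the 9 genes passed the test there (limma, Benjamini-Hochberg adjusted over 31042 probe sets, threshold 0.05), where 0.0211% of 14217 genes did. An unadjusted p under 0.05 was reached by 2 of the 9 genes, Eng and Lyve1, and by 2320 of all probe sets. Eng, which encodes endoglin, a co-receptor for TGF-beta family ligands, had signals of 1488, 1812, 2384, 1898 and 2235 in vehicle apex and of 2972, 2129, 2901, 2819 and 2221 in PE apex. The groups overlapped, with 3 PE arrays above every vehicle array, and the log2 fold change (of signal plus 16, PE over vehicle) was 0.41 ± 0.14 (SE, with n = 5 per group, limma adjusted p = 0.456). Lyve1 had 1656, 2462, 2014, 1488 and 1610 in vehicle apex and 2435, 2143, 3161, 2725 and 2551 in PE apex. Again 3 PE arrays lay above all vehicle arrays (log2 0.50 ± 0.23, adjusted p = 0.644), and its other probe set had 0.57 ± 0.29. The other 7 genes lay between -0.38 (Flt1) and 0.16 (Vwf). The median of the 9 genes was -0.01, against 0.0024 over all genes.

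**Figure D1:**
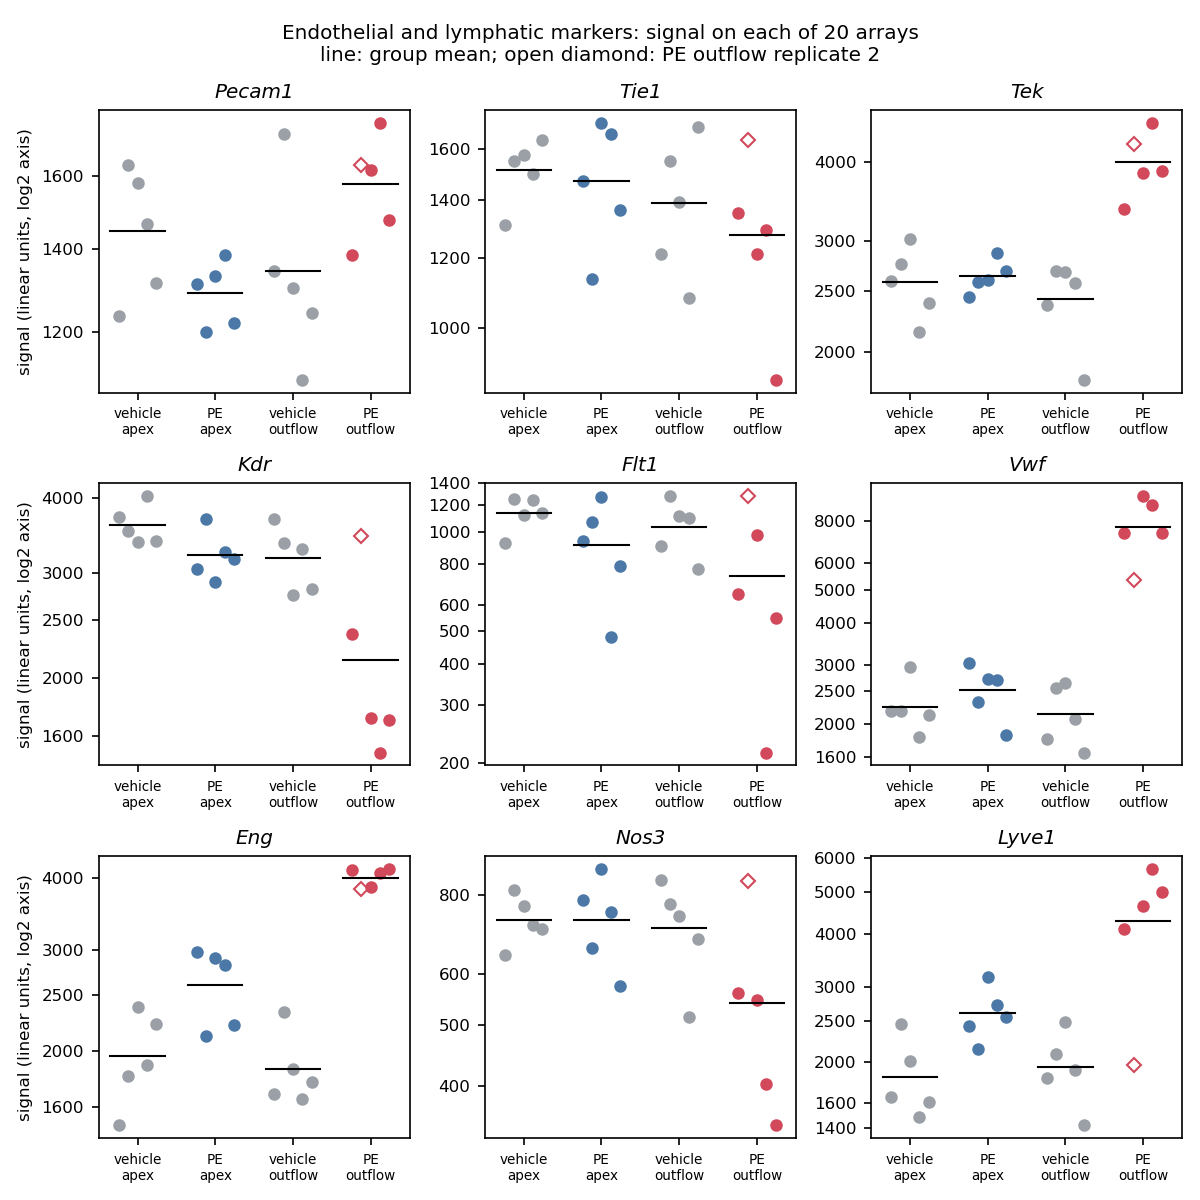
Signal of 9 endothelial and lymphatic markers (brightest probe set) on each of 20 arrays, on a log2 axis that differs between panels, by group. Lines are group means over 5 arrays, grey points vehicle, blue points PE apex, red points PE outflow, and the open diamond PE outflow replicate 2. Vwf, Eng and Tek in PE outflow lie above all vehicle outflow arrays, whereas Kdr, Flt1 and Nos3 lie lower on most PE outflow arrays but not on replicate 2.

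In the outflow tract, PE split the markers. Of the 9 genes, 4 rose (Vwf, Eng, Lyve1 and Tek), 1 fell (Kdr) and 4 were not called (Pecam1, Tie1, Flt1 and Nos3). Among all 14217 genes 26.3% rose and 18% fell in this comparison, so the counts of risen and fallen markers have to be read against a tissue in which many genes moved. The median log2 fold change of the 9 genes was 0.24, against 0.10 over all genes. For 3 of the 9 genes the groups did not overlap, as was the case for 31.5% of all genes.

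Among the genes of the endothelium as a whole, Pecam1, an adhesion molecule of endothelial junctions that platelets and leukocytes also carry, had signals of 1343, 1729, 1303, 1100 and 1244 in vehicle outflow and of 1385, 1634, 1619, 1764 and 1476 in PE outflow. The groups overlapped, with 1 PE array above all vehicle arrays (log2 0.24 ± 0.12, limma adjusted p = 0.149). Without vehicle outflow replicate 2, the highest of its group, the value was 0.33 and passed the test (adjusted p = 0.0347). Pecam1 was called in 1 of 31 alternatives. Tie1, an orphan receptor that modulates Tek, had 1213, 1552, 1391, 1082 and 1696 in vehicle outflow and 1354, 1639, 1215, 1293 and 872.2 in PE outflow. These overlapped almost fully (log2 -0.13 ± 0.16, 95% interval -0.47 to 0.21, adjusted p = 0.595).

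Tek, which encodes Tie2, the receptor of the angiopoietins, rose. Its signals were 2375, 2692, 2683, 2577 and 1812 in vehicle outflow and 3364, 4266, 3843, 4598 and 3859 in PE outflow. Each of the 5 PE arrays exceeded the whole vehicle group, and the rise was 1.65-fold (log2 0.72 ± 0.13, adjusted p = 0.000177).

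The VEGF receptors were lower on most arrays. Kdr, which encodes VEGFR2, the main signalling receptor for VEGF-A, had 3696, 3364, 2753, 3287 and 2816 in vehicle outflow. In PE outflow it had 2369, 3462, 1714, 1503 and 1702. Replicate 2 lay within the vehicle range and the other 4 arrays below it, for a 1.54-fold fall (log2 -0.62 ± 0.17, adjusted p = 0.00841). Without replicate 2 the value was -0.81, and when only the outflow arrays were fitted, the call was lost (-0.62, adjusted p = 0.0583). A dim second probe set, at 2.16 to 90.1 in vehicle outflow and 6.89 to 36.2 in PE outflow, had -0.61 ± 0.38 (adjusted p = 0.251).

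Flt1 encodes VEGFR1, which binds VEGF-A tightly and, in its soluble form, restrains it. Its brightest probe set had 907.6, 1281, 1112, 1102 and 774 in vehicle outflow and 650.5, 1277, 975.6, 215.5 and 550.3 in PE outflow. The PE arrays spread widely, 3 of them below all vehicle arrays, and the change was not called (log2 -0.68 ± 0.34, adjusted p = 0.134). Without replicate 2 it was -0.93 and passed (adjusted p = 0.0288), and without replicate 4, the lowest array, it was -0.31 (adjusted p = 0.412). The second probe set, with a mean of 204.3 ± 24 (SD) in vehicle outflow and 130.6 ± 43 in PE outflow, fell, with 3 PE arrays below all vehicle arrays (log2 -0.63 ± 0.19, adjusted p = 0.0158), and on it replicate 2, at 91, was among the low arrays. The third had -0.42 ± 0.22 (adjusted p = 0.162). All 3 probe sets were therefore lower in PE outflow, and 1 of them passed the test.

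Of the large-vessel and endocardial genes, Vwf changed most among the 9. Its signals were 1802, 2553, 2651, 2072 and 1646 in vehicle outflow and 7409, 5358, 9510, 8918 and 7406 in PE outflow. The lowest PE array, at 5358, was above the highest vehicle array, at 2651, and the rise was 3.57-fold (log2 1.84 ± 0.18, limma adjusted p = 4.61e-07). Its rise was larger than that of 97.9% of all genes, and it stayed called in all 31 alternatives, between 1.70 and 2.03. Vwf is also made by megakaryocytes and carried by platelets. Of 4 measured platelet genes 1 rose, as did 26.3% of all genes. It was Pf4 (log2 1.23 ± 0.25, adjusted p = 0.000569), which macrophages can also express. Itga2b, an integrin gene of platelets, had mean signals of 75 in vehicle outflow and 76.7 in PE outflow (log2 0.038 ± 0.30, limma adjusted p = 0.945). Its sign was the opposite under quantile normalization and centring. Gp9 (18.4 and 16.5) and Ppbp (42.5 and 39) were dim in both groups. The summed signal of the platelet list was 917.2 to 1146 in vehicle outflow and 1123 to 3754 in PE outflow. Most of it was Pf4 alone, at 729.8 to 1065 and 1016 to 3601, so the sum adds little to that gene. The part of platelets in the Vwf signal was not tested.

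Eng rose on every array. It had 1689, 2341, 1863, 1657 and 1767 in vehicle outflow and 4120, 3818, 3858, 4069 and 4143 in PE outflow. Each PE array exceeded the whole vehicle group, replicate 2 included, and the rise was 2.15-fold (log2 1.11 ± 0.14, adjusted p = 5.28e-06). Nos3, the endothelial nitric oxide synthase, which sets vessel tone, moved the other way without passing the test. It had 846, 775.3, 741.5, 514.1 and 681.6 in vehicle outflow and 560.1, 844.5, 547.3, 402.7 and 346.1 in PE outflow. Of the PE arrays, 2 lay below all vehicle arrays and replicate 2 was near the top of the vehicle range (log2 -0.43 ± 0.19, adjusted p = 0.0915). Without replicate 2 the value was -0.61 (limma adjusted p = 0.007), and without vehicle outflow replicate 4 it was -0.54 (adjusted p = 0.0399). Without PE outflow replicate 4 it was -0.35 (adjusted p = 0.215), and with PE outflow replicates 1 and 3 alone -0.33 (adjusted p = 0.221). Nos3 was called in 5 of 31 alternatives.

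The lymphatic marker Lyve1 had 1834, 2086, 2482, 1918 and 1421 in vehicle outflow and 4107, 1972, 4645, 5667 and 5009 in PE outflow. Replicate 2 lay within the vehicle range and the other 4 PE arrays above it, for a 2.10-fold rise (log2 1.07 ± 0.23, adjusted p = 0.00115). Without replicate 2 the rise was 1.32 (adjusted p = 6.8e-06). The second probe set had 669.6, 757.1, 927.6, 736.5 and 689.1 in vehicle outflow and 2416, 683, 2541, 2823 and 2475 in PE outflow. The pattern over arrays was the same, with a rise of 2.59-fold (log2 1.37 ± 0.29, adjusted p = 0.000946). Macrophage markers moved with it. All 8 measured macrophage genes rose in the outflow tract, against 26.3% of all genes. Among them were Adgre1 (log2 2.31 ± 0.24) and Mrc1 (1.63 ± 0.26). The summed signal of the 8 was 5541 to 6549 in vehicle outflow. On PE outflow arrays 1 to 5 it was 16270, 7563, 15323, 19914 and 21551, low where Lyve1 was low. The part of macrophages in the Lyve1 signal was not tested.

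**Figure D2:**
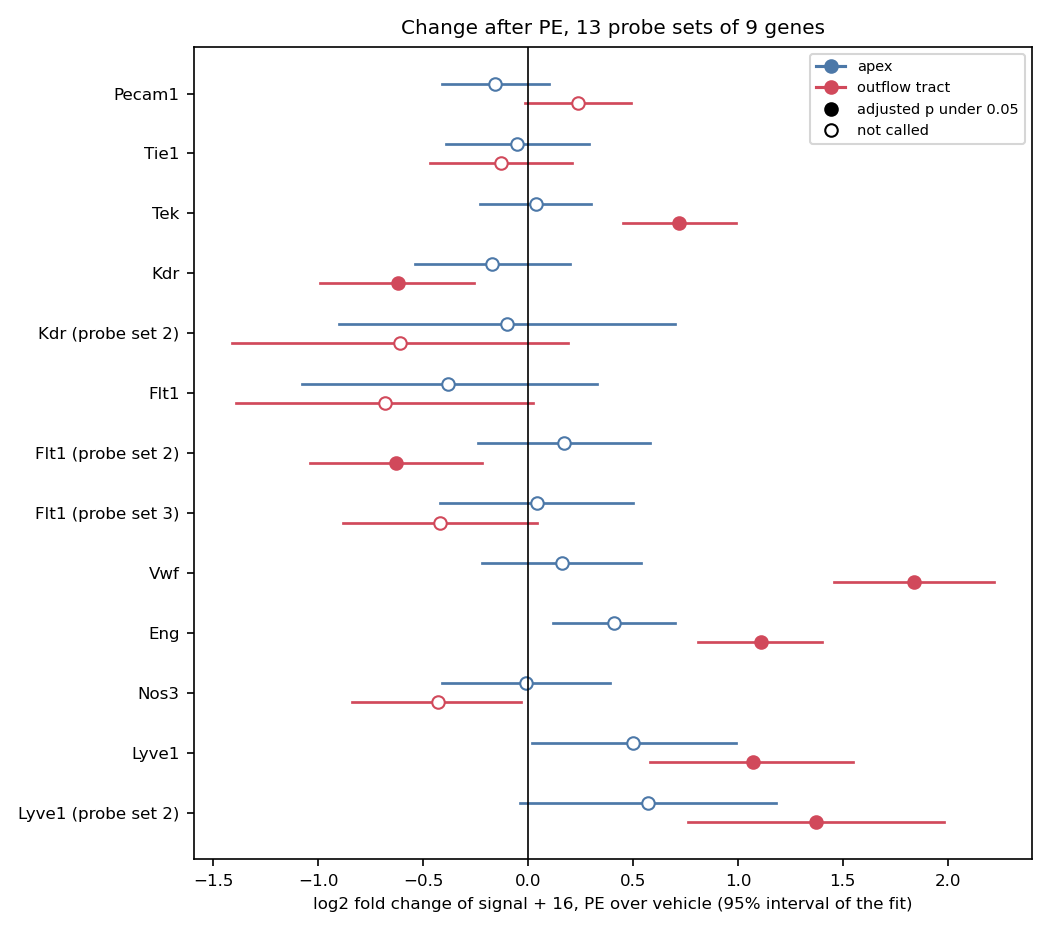
Log2 fold change of PE over vehicle with its 95% interval for 13 probe sets of 9 genes, in the apex (blue) and the outflow tract (red); filled points have an adjusted p under 0.05. In the apex 0 probe sets passed, and in the outflow tract Tek, Vwf, Eng and both Lyve1 probe sets rose while Kdr and 1 of 3 Flt1 probe sets fell.

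Other cell types also changed in the outflow tract, with values that stand beside all of these results. Among all genes 26.3% rose and 18% fell there. Of 8 cardiomyocyte genes 7 fell, among them Actn2 (log2 -1.55 ± 0.25), with a median of -0.71 that was -0.33 under quantile normalization, where 5 fell. In turn, 7 of 8 fibroblast genes rose, among them Dpt (1.46 ± 0.12). Of 9 smooth muscle and pericyte genes 6 rose and 1 fell, with Tagln at 2.69 ± 0.38, and 3 of 4 adipocyte genes rose. Of 3 measured red cell genes 1 fell, and of 3 mesothelial genes 1 rose and 1 fell, and with PE outflow replicates 1 and 3 alone 0 genes of these 2 lists were called. In the apex 0 genes of these lists were called, as against 0.0211% of all genes. The part of these shifts in the changes of the markers was not tested.

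A ratio of 2 genes on the same array is nearly free of any factor that scales the whole array. Each marker was therefore set against Pecam1, as the difference of log2 signals, and vehicle and PE arrays were compared by an exact two-sided permutation test (16 tests, Benjamini-Hochberg adjusted, smallest possible p 0.00794 before adjustment). In the outflow tract Vwf rose against Pecam1 by 1.60 on the log2 scale, from 0.42, 0.56, 1.02, 0.90 and 0.40 to 2.41, 1.70, 2.54, 2.33 and 2.32. Eng rose by 0.87 and Tek by 0.48. The 5 PE arrays exceeded the vehicle group throughout for these 3 genes (exact permutation test, adjusted p = 0.0254 each). Kdr had -0.86 and Nos3 -0.67 (adjusted p = 0.0544 each, exact permutation test), Flt1 -0.92 (adjusted p = 0.0846), Lyve1 0.83 (adjusted p = 0.0794) and Tie1 -0.37 (adjusted p = 0.116), and none of these was called. In each of Kdr, Nos3, Flt1 and Lyve1, 4 of 5 PE arrays lay beyond the vehicle range and replicate 2 within it. Without replicate 2 these 4 ratios passed, at -1.04 for Kdr, -0.83 for Nos3, -1.16 for Flt1 and 1.10 for Lyve1 (exact permutation test, adjusted p = 0.0282 each). With that array left out the groups no longer overlap, so the exact p takes its smallest value, 0.0159. These 4 calls are therefore no separate evidence. Without PE outflow replicate 4 none of these 4 ratios was called by the same test. The values were -0.71 for Kdr and -0.55 for Nos3 (adjusted p = 0.109 each), -0.51 for Flt1 (adjusted p = 0.139) and 0.75 for Lyve1 (adjusted p = 0.127). Against Tie1, a reference chosen after seeing the data, the values were -0.49 for Kdr, -0.30 for Nos3, -0.55 for Flt1, 1.20 for Lyve1, 1.97 for Vwf, 1.24 for Eng and 0.85 for Tek, and of these Vwf, Eng and Tek were called (adjusted p = 0.0222 each, exact permutation test).

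The same ratios separated PE from vehicle for Eng and Lyve1 in the apex. The signals themselves had not passed there, but they were adjusted over 31042 probe sets and the ratios over 16 tests. Before adjustment limma gave p = 0.00821 for Eng and 0.0419 for Lyve1, and both ratios had p = 0.00794 by exact permutation. Eng relative to Pecam1 had 0.26, 0.15, 0.59, 0.37 and 0.76 in vehicle apex and 1.17, 0.82, 1.11, 1.02 and 0.85 in PE apex, a rise of 0.57. Lyve1 relative to Pecam1 had 0.42, 0.59, 0.35, 0.021 and 0.29 in vehicle apex and 0.88, 0.83, 1.24, 0.97 and 1.05 in PE apex, a rise of 0.66. For both, the 5 PE arrays exceeded the vehicle group throughout (exact permutation test, adjusted p = 0.0254 each). Pecam1 itself was lower in PE apex, at a mean of 1290 ± 76.8 (SD) against 1446 ± 169.8, a difference that was not called (log2 -0.16 ± 0.12). Against Tie1, the reference chosen after seeing the data, Eng had 0.47 and Lyve1 0.56 in the apex (exact permutation test, adjusted p = 0.0222 each). In 9 of 10 rounds that left out 1 array, each of the 5 called ratios to Pecam1 missed the threshold, at an adjusted p of at most 0.0508. Before adjustment 4 arrays against 5 allow no p under 0.0159, and the adjusted p also depends on how many ratios reach that value. Over these rounds the values in the apex were 0.50 to 0.65 for Eng and 0.58 to 0.73 for Lyve1. Macrophage genes summed to 4923 to 6268 in vehicle apex and 7432 to 9467 in PE apex, without overlap, while 0 of 8 were called there.

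**Figure D3:**
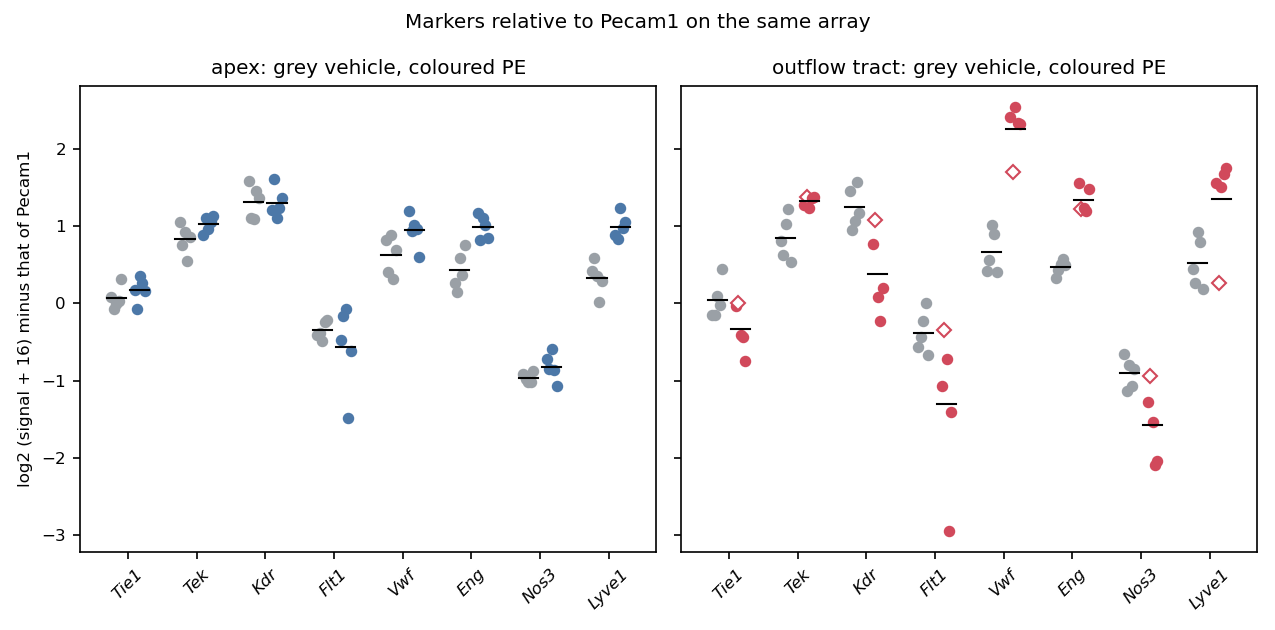
Log2 signal of 8 markers minus that of Pecam1 on the same array, for vehicle (grey) and PE (coloured) arrays of the apex (left) and the outflow tract (right). Lines are group means over 5 arrays and the open diamond is PE outflow replicate 2. In the outflow tract Vwf, Eng and Tek lie above all vehicle arrays, and Kdr, Flt1 and Nos3 lie below them on 4 of 5 PE arrays.

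Whether PE acted differently on the regions was tested by the difference between its effects in outflow tract and apex. For 3 of the 9 genes the effect was more positive in the outflow tract, and for 0 it was more negative, while 14.1% and 10.2% of all genes had such differences. Vwf differed by 1.68 ± 0.26 (log2, SE, limma adjusted p = 0.000502), Eng by 0.69 ± 0.20 (adjusted p = 0.0194) and Tek by 0.68 ± 0.18 (adjusted p = 0.0129). The call of Eng was lost when each array was centred on its median, and those of Eng and Tek with PE outflow replicates 1 and 3 alone. Lyve1 (0.56 ± 0.33, adjusted p = 0.269) and Kdr (-0.45 ± 0.25, adjusted p = 0.232) did not pass with all arrays. Both passed without PE outflow replicate 2, at 0.82 (adjusted p = 0.0168) and -0.64 (adjusted p = 0.0143). Neither passed without PE outflow replicate 4 (0.44, adjusted p = 0.421, and -0.34, adjusted p = 0.385) or with replicates 1 and 3 alone (0.68 and -0.48, adjusted p = 0.126 each). Each was called in 2 of 32 alternatives. Pecam1 had 0.40 ± 0.17 (adjusted p = 0.125) and passed without vehicle outflow replicate 2 (0.49, adjusted p = 0.0427), in 1 of 31 alternatives.

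Between the regions of vehicle rats, 0 of the 9 genes were called by limma, also 0 at an unadjusted p under 0.05, and 0% of all genes were called. The log2 differences, outflow minus apex, lay between -0.19 (Kdr) and 0.079 (Lyve1). In PE rats the regions differed for 5 of 9 genes, 4 higher in the outflow tract and 1 lower, against 22.3% and 15.5% of all genes. Vwf was 1.60 ± 0.18 higher (adjusted p = 5.59e-06), Eng 0.63 ± 0.14 (adjusted p = 0.00194), Tek 0.59 ± 0.13 (adjusted p = 0.0016) and Lyve1 0.64 ± 0.23 (adjusted p = 0.0437), and Kdr had -0.64 ± 0.17 (adjusted p = 0.00877). The call of Lyve1 was lost in 16 of 32 alternatives and that of Kdr in 2 of 32. That of Tek was lost in 1 of 31, with PE outflow replicates 1 and 3 alone (0.45, limma adjusted p = 0.0713). Nos3 was not called (-0.48 ± 0.19, adjusted p = 0.0716) but passed in 7 of 31 alternatives. It had -0.65 without PE outflow replicate 2 (adjusted p = 0.00521) and -0.39 without replicate 4 (adjusted p = 0.177). For Vwf, Eng, Tek and Pecam1 all PE outflow arrays lay above all PE apex arrays, and such separation held for 27.6% of all genes. Of the Flt1 probe sets the brightest had -0.45 ± 0.34 (adjusted p = 0.364) and the third -0.50 ± 0.22 (adjusted p = 0.0986), neither called, and the second was lower in PE outflow (-0.75 ± 0.19, adjusted p = 0.00628).

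The genes of related cells and pathways are given beside the markers. In the outflow tract 26.3% of all genes rose and 18% fell, and every count of these lists stands against those shares. Of 12 measured capillary endothelial genes, 7 fell, 3 rose and 2 were not called in the outflow tract, with a median log2 fold change of -0.67 against 0.10 for all genes. Car4, a carbonic anhydrase of capillary walls, had mean signals of 1404 in vehicle and 416.7 in PE outflow (-1.81 ± 0.27, adjusted p = 3.44e-05), while a dim second probe set was not called. Cd36, a fatty acid transporter that heart muscle cells also carry, had 14079 and 4670 (-1.72 ± 0.25, adjusted p = 2.78e-05), and Fabp4, a fatty acid binding protein of capillaries and fat, fell by 0.71 ± 0.18, and was not called under quantile normalization (-0.41, adjusted p = 0.0877) or with PE outflow replicates 1 and 3 alone (-0.49, adjusted p = 0.181). Id3, a target of BMP signals, rose by 0.87 ± 0.19. With PE outflow replicates 1 and 3 alone 4 capillary genes fell and 1 rose.

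Of 22 other genes shared by endothelial cells, 9 rose, 0 fell and 13 were not called, with a median of 0.12 that turned to -0.016 when arrays were centred on their medians, where 3 fell. Procr, the endothelial protein C receptor, rose by 2.10 ± 0.29 and the adhesion molecule Mcam, which smooth muscle also makes, by 1.68 ± 0.22. Ramp2 rose by 0.70 ± 0.13 and Icam2 by 0.55 ± 0.10. A dimmer probe set of Mcam also rose (0.95 ± 0.20), and that of Icam2 was not called (0.47 ± 0.18, limma adjusted p = 0.0573). Without PE outflow replicate 2, 8 of these genes rose and 4 fell. Of 8 arterial genes 4 rose and 2 fell, with the connexin gene Gja4 at 1.43 ± 0.17, the Notch ligand gene Jag1 at 1.19 ± 0.16 and the other Notch ligand gene Dll4 at -0.81 ± 0.19.

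Venous and activated endothelial genes rose for 6 of 8, with 0 fallen and a median of 1.46. Plvap, which forms the diaphragms of fenestrated and venous endothelium, had mean signals of 310.1 in vehicle and 1784 in PE outflow (log2 2.45 ± 0.20, adjusted p = 7.94e-08). The leukocyte adhesion genes Vcam1 (2.07 ± 0.28) and Icam1 (1.96 ± 0.20) rose, as did Nr2f2, a regulator of venous identity that fibroblasts also express (1.64 ± 0.18), although 2 dimmer Nr2f2 probe sets were not called (0.55 and -0.22). Endocardial genes rose for 6 of 8 and fell for 1, with a median of 1.26. Nrg1, an endocardial growth factor, rose by 2.84 ± 0.34 on its brightest probe set, with a mean of 64.9 in vehicle and 578.5 in PE outflow, and its dimmer probe sets differed in direction. Edn1 (endothelin) rose by 1.79 ± 0.28 and Cytl1 by 1.43 ± 0.20, Tmem108 fell by 0.61 ± 0.11, and Npr3, the natriuretic clearance receptor, was not called (0.39 ± 0.56, adjusted p = 0.655).

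Lymphatic genes rose for 5 of 9 and fell for 1, with a median of 0.88, in the tissue in which Lyve1 rose. Ccl21, the chemokine of lymphatic vessels, had mean signals of 2150 in vehicle and 8867 in PE outflow (log2 2.02 ± 0.19, adjusted p = 2.99e-07). Reln rose by 2.28 ± 0.19 and Pdpn, podoplanin, which fibroblasts and mesothelium also make, by 1.24 ± 0.16. Prox1, the regulator of lymphatic identity, which heart muscle cells also express, fell (log2 -1.09 ± 0.20, adjusted p = 0.000209) from a mean of 1915 to 958.8, while a second probe set at means of 26.5 and 33 had 0.18. Flt4, the lymphatic VEGF receptor VEGFR3, was dim, at 64.6 and 89.2, and was not called (0.39 ± 0.34, adjusted p = 0.427).

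The ligands of Kdr, Flt1 and Tek moved as well. Of 14 measured ligands, co-receptors and regulators 6 rose, 3 fell and 5 were not called, where 26.3% of all genes rose and 18% fell. Vegfa, the ligand of Kdr and Flt1, had mean signals of 7020 in vehicle and 2919 in PE outflow (log2 -1.38 ± 0.23, adjusted p = 0.000106), and Vegfb, a ligand of Flt1, had 4547 and 1667 (-1.54 ± 0.21, adjusted p = 1.21e-05). Angpt1, the activating ligand of Tek, was dim, at 72.5 to 110.4 in vehicle outflow and at 53.8, 2.55, 1.84, 38.9 and 2.91 in PE outflow. It fell by the test (adjusted p = 0.000341), but the size of the fall depends on the value added before taking logs. Angpt2, which can oppose it, rose from 261.7 to 1318 (2.21 ± 0.22, adjusted p = 4.03e-07). Hif1a rose by 0.81 ± 0.13. The co-receptor gene Nrp1 (0.089 ± 0.12, adjusted p = 0.629, and -0.045 with arrays centred on their medians) and Ptprb, a phosphatase that acts on Tek (0.14 ± 0.14, adjusted p = 0.479), were not called. Without PE outflow replicate 2, 8 of the 14 rose and 3 fell.

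In the pathway of endoglin 6 of 8 genes rose and 0 fell. Acvrl1, which encodes ALK1, the endothelial receptor that endoglin assists, had mean signals of 617.3 in vehicle and 1336 in PE outflow (log2 1.09 ± 0.11, adjusted p = 7.95e-07). Smad7 (1.14 ± 0.21), Smad6 (1.12 ± 0.18) and Smad1 (0.57 ± 0.11) rose on their brightest probe sets and not on their dimmer ones. Of 15 genes of the nitric oxide pathway around Nos3, 5 rose, 1 fell and 9 were not called. Of all genes 26.3% rose and 18% fell. The subunits of the nitric oxide receptor, Gucy1b1 (0.99 ± 0.17) and Gucy1a1 (0.95 ± 0.18), and the regulator Klf4 (0.77 ± 0.19) rose. A second probe set of Gucy1b1 also rose (1.28 ± 0.18), and that of Gucy1a1 was not called (0.53 ± 0.21, limma adjusted p = 0.0544). Ddah1, which removes an inhibitor of the synthase, fell by 0.72 ± 0.18, a call lost with PE outflow replicates 1 and 3 alone (-0.48, adjusted p = 0.107). Without PE outflow replicate 2, 3 genes of this pathway fell, and with replicates 1 and 3 alone 3 rose. In the apex 0 genes of these 9 lists were called, as against 0.0211% of all genes.

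**Figure D4:**
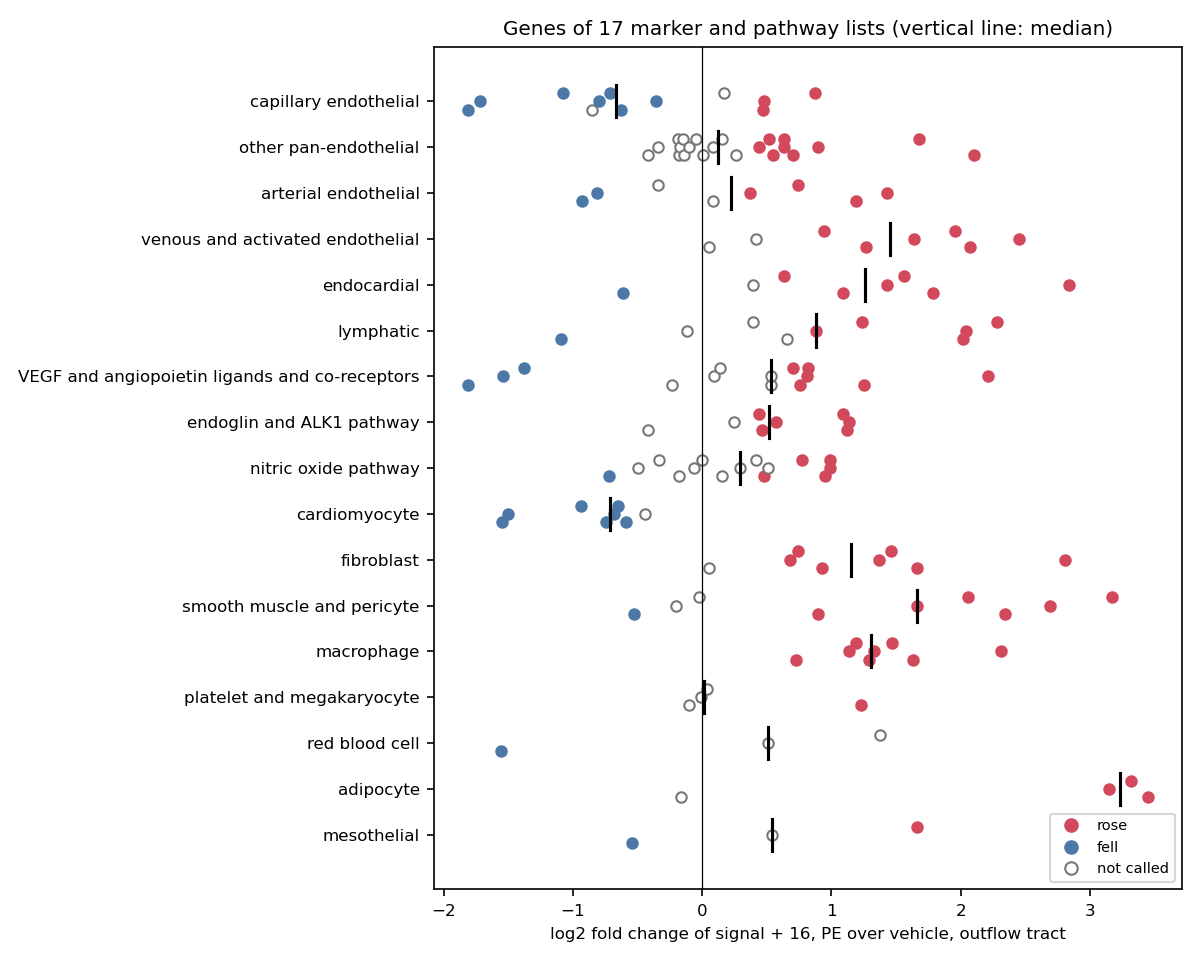
Log2 fold change of PE over vehicle in the outflow tract for every measured gene of 17 lists (9 of endothelial types and pathways, 8 of other cell types); red points rose, blue points fell, open points were not called, and the vertical line is the list's median. Capillary genes have a median of -0.67, and venous, endocardial and lymphatic genes have medians of 1.46, 1.26 and 0.88.

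Within groups, the arrays were compared for genes that varied with a marker after group means were removed, over 20 arrays and 8120 genes with a mean log2 signal of 8 or more. These correlations are descriptions, since arrays share the quality differences given above. Vwf varied most closely with Mest (Pearson r = 0.90), Cgnl1 (0.89), a junction gene in the endocardial list, and Ackr4 (0.82), and stayed near them without PE outflow replicate 2 (0.89, 0.86 and 0.79). Kdr had Amhr2 (0.95), Atp5mpl (0.94) and Klhl24 (0.92), which were 0.91, 0.86 and 0.83 without that array. Lyve1 had Plod2 (0.93), Tent5a (0.92) and Rpia (0.92), which were 0.85, 0.84 and 0.83 without it. Nos3 had Ndufa4l2 (0.86), Ckmt2 (0.82) and Enah (0.82), and Flt1 had Epb41l4a (0.89), Afg3l2 (0.87) and Klhl40 (0.84). Tek had Cep44 (0.81), Ube2n (0.80) and Dek (0.79), and Tie1 had the water channel gene Aqp1 (0.79), a capillary list member, Nckap5l (0.78) and Dop1a (0.77). Eng had Oplah (0.72), Ttll5 (0.68) and H19 (0.68), and Pecam1 had Zmat3 (0.70), Pycr3 (0.70) and Nr2c2ap (0.68).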

How the data were processed

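The deposited values are signal intensities, 1 per probe set and array, on a linear scale. They come already scaled by the authors, as every array had a mean of 500.2 once 2% of values were trimmed from either end. The software is not given in the sources used here. Probe sets were named by the platform annotation: of 31042 tested (31099 less 57 controls), 20826 had 1 gene symbol, 436 several and 9780 none, and the probe set with the highest mean log2 signal stood for each of 14217 genes. Median signals per array were 123.1 to 159.5, and the number of arrays limits the precision.

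Groups follow the sample titles and the treatment field, because another text field describes the vehicle injection for all samples. The volume injected in vehicle rats is given as 0.15 ml per 100 g in the sample labels and as 0.01 ml in the design text. Log2 of signal plus 16 was fitted with 4 group means over 20 arrays (limma 3.58.1, lmFit and eBayes, R 4.3.3), with two-sided p-values adjusted by Benjamini-Hochberg over 31042 probe sets and called under 0.05. Fold changes are those of signal plus 16. Errors of changes are standard errors (SE) of the fit and those of signals standard deviations (SD). The fit was tested on simulated data. The ratio to Pecam1 was tested by exact permutation (252 arrangements, Python 3.11.15, scipy 1.17.1). Cdh5 had been planned as its reference and Pecam1 as the replacement.

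Arrays of apex and outflow tract with the same number within a treatment deviated together from their group means (r 0.181 to 0.275 in vehicle and 0.181 to 0.283 in PE rats, over the 12310 probe sets whose mean log2 exceeded 8). The numbers were therefore read as rats within a treatment. Between vehicle and PE arrays r was -0.283 to 0.154, and the numbers do not pair these.

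The markers and the gene lists were chosen with earlier results of these data known. Named are all markers with every probe set, up to 4 genes per list with the smallest p in the outflow tract, 10 pathway genes chosen by name (Vegfa, Angpt1, Angpt2, Ptprb, Acvrl1, Nrp1, Prox1, Flt4, Pdpn and Npr3), and the 3 genes closest to each marker by correlation. The alternatives were other normalizations, filters, added values, array weights, a robust trend, the rat or replicate number as a block, other probe sets, and arrays left out. Tie1 as the reference and the alternatives for the gene lists were chosen after seeing the data.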

Additional observations from a re-analysis of the deposited data

Results flagged for a closer look

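The effect of PE on 3 markers differed between the regions by the test of the difference itself (limma, 5 arrays per group). Vwf had a log2 fold change of 1.84 in the outflow tract and 0.16 in the apex, a difference of 1.68 (adjusted p = 0.000502). Tek had 0.72 and 0.038, a difference of 0.68 (adjusted p = 0.0129). Eng had 1.11 and 0.41, a difference of 0.69 (adjusted p = 0.0194). In the outflow tract each of the 5 PE arrays exceeded the whole vehicle group for these genes, and in the apex 1, 0 and 3 of 5 arrays did. For Dixon's test of a lone high or low array (critical value 0.71), 36 groups of 5 arrays were examined and 0 passed, where chance passes about 1 in 20.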

How the results depend on the processing

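Counts of called markers were computed under 32 alternatives. The counts of risen markers stayed within 1.5 times the reported ones, except that 1 gene instead of 3 had a more positive effect in the outflow tract with PE outflow replicates 1 and 3 alone. In the outflow tract the count of fallen markers was 2 under quantile normalization, centring of arrays and array weights, where Nos3 joined Kdr, 0 when only the compared groups were fitted, and 1 to 3 when 1 array was left out. With array weights 1 marker had a more negative effect in the outflow tract than in the apex (0 to 1 when 1 array was left out). Between the regions of PE rats, 2 markers were lower in the outflow tract under quantile normalization, centring, array weights, the robust trend and without the 40% dimmest probe sets, 0 when only the compared groups were fitted, and 1 to 2 when 1 array was left out.

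As for pairing, the replicate block for the rat, as a random or fixed effect, changed no call of a marker, with Vwf at 1.60 between the PE regions and 4 markers risen and 1 fallen there. The rats of vehicle and PE groups share only a number. A replicate block on that number, fitted by limma to the outflow arrays alone, left 0 markers fallen there, with Kdr at -0.62 (adjusted p = 0.0583). Fitting the same arrays without a block also left 0 fallen, with the same value and adjusted p for Kdr. The loss therefore cannot be credited to the block.

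Some values that were not called turned direction. Flt1 in the apex, at -0.38, was 0.17 on its second probe set, and its difference between regions, at -0.31, was 0.027 with PE outflow replicates 1 and 3 alone and -0.56 to 0.064 when 1 array was left out. Leaving out 1 array also gave -0.025 to 0.10 for Tek, -0.11 to 0.035 for Tie1 and -0.08 to 0.071 for Nos3 in the apex, -0.17 to 0.051 for the difference of Tie1, and -0.089 to 0.053 for Kdr and -0.34 to 0.012 for Flt1 relative to Pecam1 in the apex. The cause was not tested. Quantile normalization and centring moved the median of all genes in the outflow tract from 0.10 to 0.03 and -0.04. With centring, 1 capillary gene instead of 3 rose. Dim probe sets, such as the second of Kdr, limit what can be called.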
